A study of Canis lupus familiaris with 10 samples.

Results

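The genes described here are those of the cyclin D, CDK inhibitor and RB step of the cell cycle, CDKN2A, CDKN2B, CDKN1B, CDKN1C, RB1, CCND1, CCND2, CCND3, CDK4 and CDK6, in hemangiosarcoma cells of dogs. They were chosen by name, and every probe set of the array annotated to 1 of them alone was taken. Of the 10 genes, 8 had a probe set, out of 15115 genes with a probe set named for them alone, and these 8 genes had 12 probe sets. CDKN2A and CDKN1C had no probe set named for them by symbol or gene identifier, so their levels are not analysed here.

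RNA came from cultured tumor cells of splenic hemangiosarcoma, a sarcoma with endothelial features, frozen at the earliest passages that were at hand, with 1 culture and 1 Affymetrix Canine_2 array per dog. The study asked whether tumors of Golden Retrievers differ in gene expression from those of other dogs. The Golden Retriever group held 6 dogs (ChadG4, ChadG6, ChadG8, Frog, Journey and Tucker), 3 female and 3 male, of which Frog and Journey were distant relatives. The non-Golden Retriever group held 3 males of different breeds, ChadP9 (labelled Portugese Water Dog), Dal4 (labelled Dalmation) and Joey (labelled Rottweiler), so breed and sex are partly confounded. DD1 was a male cross of a Golden Retriever and a Great Pyrenees, and it entered no test. No culture was arrayed again. Each SD is therefore the spread between dogs, and for neighbouring cultures in an order of levels no error within a dog can be given. Values are log2 signals, and 1 log2 unit is a doubling. Signals of different probe sets are not comparable as levels of their genes. Where a gene had a pair of probe sets, they are called the brighter and the dimmer by their mean over the 10 cultures.

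D-type cyclins are made when growth factors act on a cell, and they activate the kinases CDK4 and CDK6. These kinases phosphorylate the retinoblastoma protein, the product of RB1, which then releases the E2F transcription factors that switch on genes of DNA synthesis. The products of CDKN2A and CDKN2B block CDK4 and CDK6, whereas those of CDKN1B and CDKN1C mainly block the cyclin E and cyclin A kinases. Loss of CDKN2A or RB1 and gain of CCND1 or CDK4 are well known in many tumors.

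The cultures Dal4 and ChadG4 stood apart from the others before any gene was considered. Their median correlation with the other arrays was 0.908 and 0.909, against 0.937 to 0.958 for the other 8 arrays. Dal4, a male by its record, had a signal of 2.95 for EIF2S3, which has a copy on each sex chromosome, where the 3 females had 3.08 to 3.33 and the other 6 males 10.15 to 10.60. Breed differences of the members were therefore also fitted without each of these cultures. The ranges, the correlations and the means over lists and chromosomes include both. Of the endothelial markers, PECAM1, VWF, TEK and EMCN, 4 of the 8 on the list, did not pass the filter on low signals. The others, CDH5, TIE1, CLDN5 and KDR, exceeded the 40th percentile on all 10 arrays, which lay between 5.03 and 5.16. CDH5 (5.15 to 5.41) and TIE1 (5.06 to 5.72) were close to this percentile, so their signals do not show clear expression. KDR ran from 6.51 to 8.25, and CLDN5 lay between TIE1 and KDR in every culture. The mesenchymal genes COL1A1 and COL1A2 lay between 12.84 and 14.32 in all cultures, as did DCN, except for 12.55 in ChadP9. LUM had 4.40 in Dal4 and 12.47 to 14.08 elsewhere, PDGFRB ran from 6.04 to 7.17 and THY1 from 6.35 to 8.33. The mean deviation of these 6 mesenchymal genes was -1.57 in Dal4 and -0.21 to 0.30 in the other cultures. The mean in Dal4 came almost wholly from LUM, whose median was 13.81. COL1A1, COL1A2, PDGFRB and DCN were also below their medians in Dal4, but by far less, with DCN at 12.96 against 13.89. THY1 was highest in Dal4, at 8.33 against a median of 7.06. The mean therefore does not show that these genes were low in Dal4 as a set. Of the 5 leukocyte markers, PTPRC, CD79A and ITGAM did not pass the filter, while CD3E (6.19 to 6.61) and CD14 (5.98 to 7.98) exceeded the 40th percentile on all 10 arrays. Of the smooth muscle markers, ACTA2 had 6.39 in ChadG4, 9.73 in Dal4 and 12.69 to 14.13 elsewhere. CNN1 ran from 5.11 to 11.02 and TAGLN from 12.97 to 14.33, and MYH11 (7.24) and DES (9.48) were highest in Journey. Of the epithelial markers, KRT18 ran from 3.57 to 13.22, and KRT8 had 3.82 in ChadP9 and 9.45 to 11.67 elsewhere. EPCAM had 8.87 in Joey, 8.03 in Tucker and at most 4.72 elsewhere, and neither it nor CDH1 passed the filter. The part of these markers in the results was not tested. Expression in a culture cannot separate the share of a cell type from the RNA per cell.

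Of the D-type cyclins, CCND1 and CCND2 varied widely between dogs, while CCND3 varied little. CCND1 encodes cyclin D1 and lies on chromosome 18 from 48958012 to 48967584 of the dog assembly UU_Cfam_GSD_1.0. Its brighter probe set had signals of 11.55 in ChadG4, 12.44 in ChadG6, 12.61 in ChadG8, 11.75 in Frog, 11.24 in Journey and 11.38 in Tucker. The non-Golden Retrievers had 12.22 in ChadP9, 10.99 in Dal4 and 10.11 in Joey, and DD1 had 12.83. DD1 was thus highest and Joey lowest, and the groups overlapped. The dimmer CCND1 probe set gave nearly the same order (r = 0.99 over 10 cultures) and ran from 9.27 in Joey to 12.69 in DD1. At this probe set Joey lay 1.24 log2 units below the next culture. It was the only 1 of the 10 tested member probe sets at which a single culture was at least 1 log2 unit below all others, which held for 2.9% of all tested probe sets. None had a culture this far above the others, against 3.27% of all tested probe sets.

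CCND2 encodes cyclin D2 and lies on chromosome 27 from 5499635 to 5529695. Its probe set had 9.46 in ChadG4, 11.12 in ChadG6, 10.80 in ChadG8, 10.00 in Frog, 9.22 in Journey and 10.41 in Tucker. It had 9.15 in ChadP9, 12.22 in Dal4, 9.96 in Joey and 11.72 in DD1. Dal4 was highest and DD1 next, and ChadP9 and Journey were lowest with almost equal values. CCND1 and CCND2 showed no clear relation over the 10 cultures (Pearson r = 0.23, permutation p = 0.526; Spearman rho = 0.25, permutation p = 0.491). Without DD1 and Joey, the cultures farthest from the median of CCND1, r was -0.08. This was the only 1 of 5 planned pairs for which both measures existed, so no adjustment was needed. ChadP9 was above the median of the cultures for CCND1 and lowest for CCND2, and Dal4 was below the median for CCND1 and highest for CCND2. This is an order among cultures, since both genes had bright signals in all of them, at percentiles of at least 85.6 of every array.

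CCND3 encodes cyclin D3 and lies on chromosome 12 from 10782466 to 10877073. Its probe set ran only from 6.02 in Tucker to 7.09 in DD1, a range of 1.08 log2 units. DD1 thus had the highest signal of all 10 dogs at both CCND1 probe sets, which measure the same RNA, and at CCND3, 3 of the 10 tested member probe sets. Its lead over the next culture was small, at 0.23 and 0.17 log2 units for CCND1 and 0.17 for CCND3. At 5 of the 10 DD1 lay within the range of the Golden Retrievers, and at 5 within that of the non-Golden Retrievers. The shares of all tested probe sets for these counts are not given here, so nothing is read from them.

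**Figure D1:**
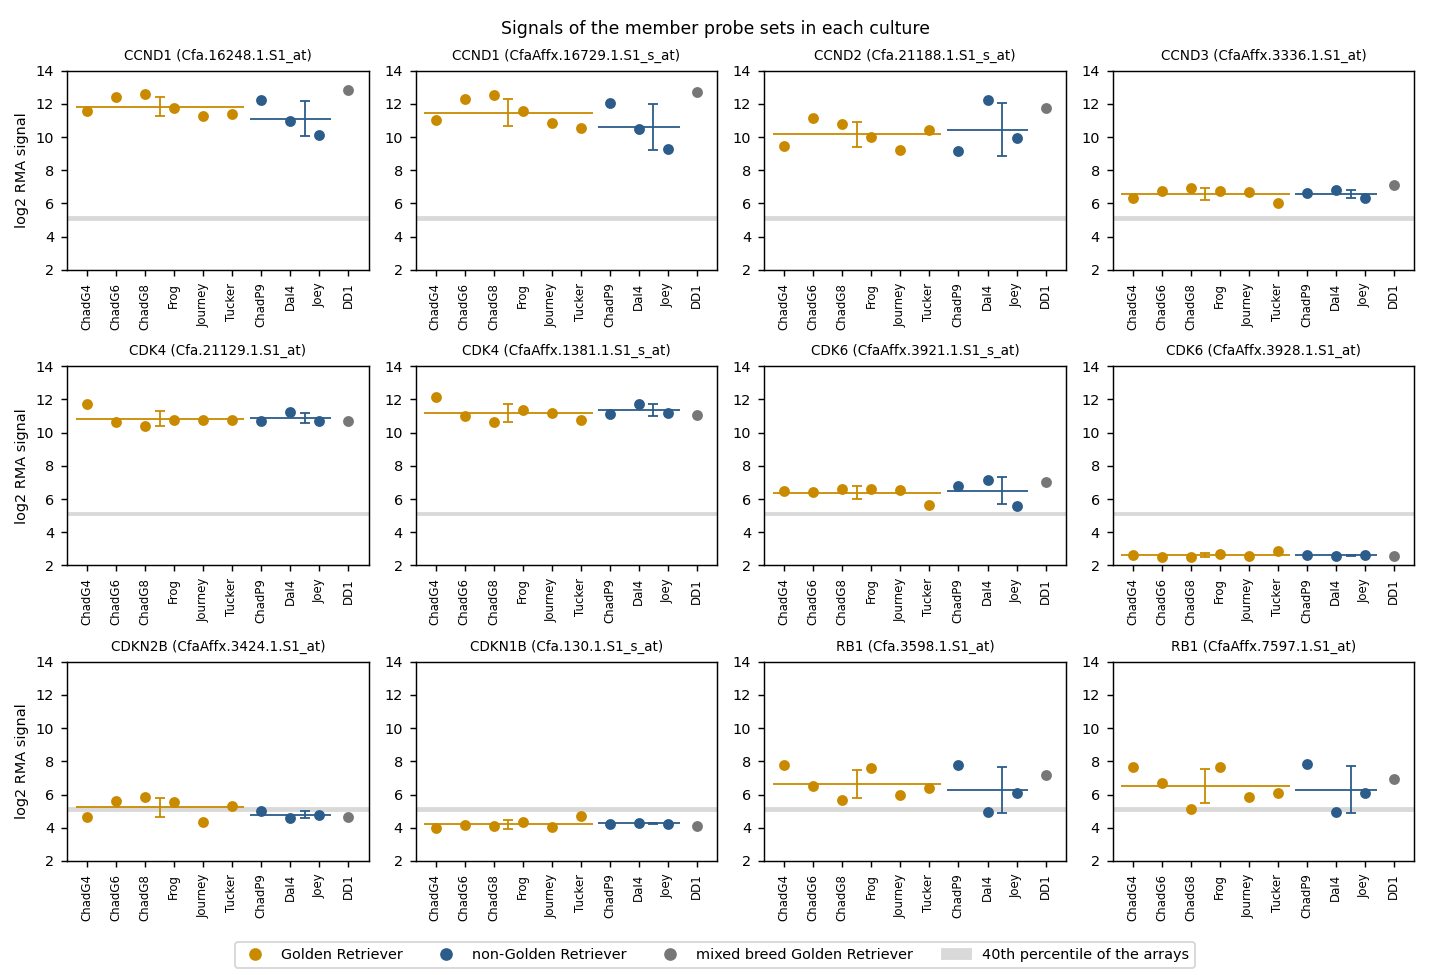
Log2 signal (vertical axis) of the 12 member probe sets in each of the 10 cultures (horizontal axis), with lines and bars for the mean and SD of the 6 Golden Retrievers and the 3 non-Golden Retrievers and a grey band at the 40th percentile of the arrays. CCND1, CCND2 and RB1 spread over more than 2 log2 units, whereas CDKN1B and the dimmer CDK6 probe set lie below the band in every culture.

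The kinase CDK4 was expressed at a high and rather even signal, with ChadG4 above the rest. CDK4 lies on chromosome 10 from 2166806 to 2169759. Its brighter probe set had 12.14 in ChadG4, 11.02 in ChadG6, 10.62 in ChadG8, 11.39 in Frog, 11.16 in Journey and 10.75 in Tucker. It had 11.10 in ChadP9, 11.75 in Dal4, 11.20 in Joey and 11.08 in DD1. The dimmer probe set also had its highest signals in ChadG4, at 11.73, and in Dal4, at 11.24, with the other 8 cultures between 10.38 and 10.78. ChadG4 and Dal4, which are of different breed groups, were therefore the highest at both probe sets.

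CDK6, the other kinase that cyclin D activates, lies on chromosome 14 from 18137407 to 18377659. Its brighter probe set ran from 5.59 in Joey and 5.61 in Tucker to 7.01 in DD1 and 7.14 in Dal4. Joey and Tucker, 1 dog of each group, were set off from the other 8 cultures, which had at least 6.45. The dimmer CDK6 probe set had 2.49 to 2.89. It lay at or below the 40th percentile of every array, so it was not tested and gives no level of CDK6.

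Of the inhibitors, CDKN2B was near background and CDKN1B did not rise above it. CDKN2B encodes p15, an inhibitor of CDK4 and CDK6, and lies on chromosome 11 from 41374892 to 41378057, next to CDKN2A (41337054 to 41366301). Its probe set had 4.67 in ChadG4, 5.62 in ChadG6, 5.83 in ChadG8, 5.56 in Frog, 4.36 in Journey and 5.31 in Tucker. It had 5.03 in ChadP9, 4.61 in Dal4, 4.74 in Joey and 4.62 in DD1. Only ChadG6, ChadG8, Frog and Tucker exceeded the 40th percentile of their array, which lay between 5.03 and 5.16. A lower signal in the other 6 cultures is at background and does not show that the gene is silent or lost. MTAP, the nearest measured gene on the side of CDKN2A away from CDKN2B and often deleted with CDKN2A in tumors, had 9.01 in Dal4, a median of 9.61 and 10.00 in ChadG6. The MTAP transcript was above background in every culture. CDKN2A itself had no probe set, and whether it was kept or lost was not tested.

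CDKN1B encodes p27, an inhibitor of CDK2, and lies on chromosome 27 from 12566389 to 12567535. Its probe set had 3.98 to 4.68, at percentiles of 21.3 to 33.6 of the arrays, and was not tested. CDKN1C, on chromosome 18 from 47315144 to 47317648, had no probe set.

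RB1 was the tumor suppressor of the set that was clearly measured, and its signal differed widely between single dogs of both groups. RB1 lies on chromosome 22 from 3028586 to 3174226. Its brighter probe set had 7.75 in ChadG4, 6.54 in ChadG6, 5.68 in ChadG8, 7.60 in Frog, 5.99 in Journey and 6.41 in Tucker. It had 7.77 in ChadP9, 4.96 in Dal4, 6.08 in Joey and 7.15 in DD1. ChadP9, ChadG4 and Frog were high and Dal4 was lowest, 0.72 log2 units below ChadG8. The dimmer probe set gave the same picture (r = 0.98 over 10 cultures), with 4.97 in Dal4 and 5.15 in ChadG8 at the low end and 7.81 in ChadP9 at the high end. At both probe sets Dal4 was the 1 culture at or below the 40th percentile of its array.

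Comparison of the breed groups gave no difference at any member gene that exceeded the spread between dogs. By limma, 0 of the 10 tested member probe sets passed an adjusted p of 0.05, as did 0.00372% of the 26851 probe sets tested, and 0 passed an unadjusted p of 0.05, as did 6.32% (1.81% higher and 4.51% lower in Golden Retrievers). The groups were fully separated at 0 of the 10, against 2.45% of all tested probe sets. Taken as Golden Retrievers minus the others, the difference was above 0 at 5 probe sets, against 47.2% of all tested probe sets, and below 0 at 5, with a median of 0.10 against -0.02 over all tested probe sets. CDKN2B had passed the filter on low signals through Golden Retrievers alone. Without it, 4 of 9 were above 0 and the median was -0.01. A range of at least 2 log2 units over the 10 cultures was found at 5 of the 10, against 15.1% of all tested probe sets. These 5 were of CCND1, CCND2 and RB1, 3 of the 7 genes with a tested probe set. The median range was 2.13 log2 units for the member probe sets and 1.06 for all tested probe sets. CCND1, RB1 and CDK4 each entered with a pair of probe sets that measure the same RNA, so these are not values of separate genes.

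CCND1 had the largest difference of the members. At the brighter probe set Golden Retrievers had a mean of 11.83 ± 0.566 (SD, n = 6), and the non-Golden Retrievers had one of 11.11 ± 1.06 (SD, n = 3). The difference was 0.72 (SE 0.463, 95% interval -0.32 to 1.76, limma adjusted p = 0.799; exact permutation test, two-sided, p = 0.226). It depended on single dogs of the smaller group. It was 0.23 without Joey and 1.28 without ChadP9, and at the dimmer probe set it was 0.87 (SE 0.619, limma adjusted p = 0.821), 0.20 without Joey and 1.59 without ChadP9. Without ChadP9 both CCND1 probe sets were higher in every Golden Retriever than in Dal4 and Joey, but so were 6.4% of all tested probe sets, and neither passed the adjusted test.

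For RB1 the difference was 0.39 (SE 0.642, 95% interval -1.05 to 1.83, limma adjusted p = 0.938) at the brighter probe set and 0.21 (SE 0.706, limma adjusted p = 0.974) at the dimmer. Without Dal4 it turned to -0.27 and -0.45. For CCND2 it was -0.27 (SE 0.654, 95% interval -1.74 to 1.19, limma adjusted p = 0.96), and without Dal4 it turned to 0.61. CDKN2B had 5.22 ± 0.583 (SD, n = 6) in the Golden Retrievers against 4.79 ± 0.212 (SD, n = 3). The 4 cultures in which it exceeded the filter were all Golden Retrievers, so it could be tested only because it was higher there, and nothing is read from its fitted difference of 0.43 (SE 0.325).

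CDK4 had differences of -0.17 (SE 0.321, 95% interval -0.89 to 0.56) at the brighter and -0.05 (SE 0.278, 95% interval -0.68 to 0.57) at the dimmer probe set. CDK6 had -0.13 (SE 0.347, 95% interval -0.90 to 0.65) and CCND3 had -0.01 (SE 0.218, 95% interval -0.50 to 0.48). Breed differences of either sign within these intervals are compatible with the values of the 9 dogs. Without ChadG4 the CDK4 differences were -0.36 and -0.23, and without Dal4 they were 0.03 and 0.12.

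**Figure D2:**
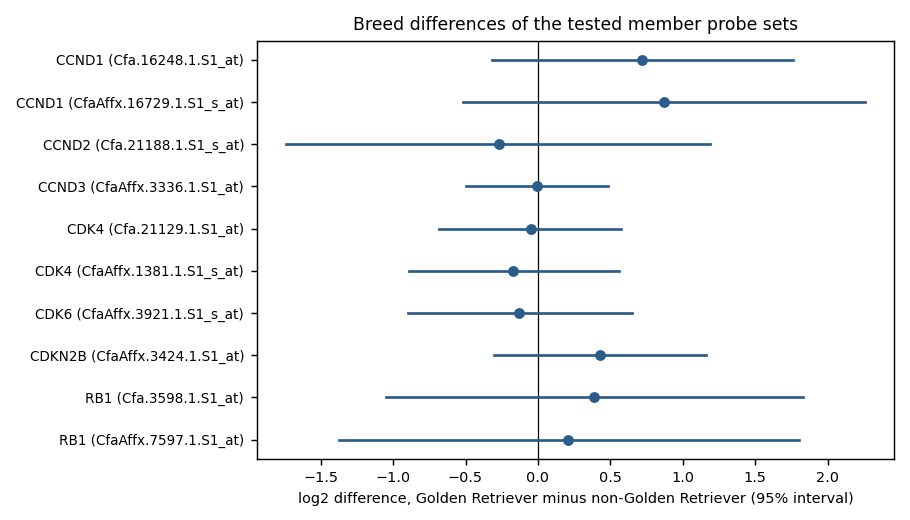
Log2 difference between the breed groups, positive where Golden Retrievers are higher (horizontal axis), with its 95% interval from limma for the 10 tested member probe sets (vertical axis), 6 dogs against 3. Every interval includes 0, and those of CCND1, CCND2 and RB1 are the widest.

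The genes on either side of a member were set beside it to see whether a low or high signal in 1 culture was shared along the chromosome. For each member, the 5 nearest measured genes on each side were taken, and each signal was expressed as its deviation from the median of the 10 cultures. CCND1, low in Joey, did not share its low signal with its neighbours. Joey had a median deviation of 0.17 over SHANK2, CTTN, PPFIA1, FADD, LTO1, TPCN2, MRGPRF, MRGPRD, MRPL21 and CPT1A, and a mean of 0.05 over 409 genes of chromosome 18.

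RB1, CDK4, CCND2 and CCND3 are described in the same way, and these were singled out after their values were seen. RB1 in Dal4 was low together with its surroundings. Its deviation was -1.51, and the 10 neighbours (EBPL, SETDB2, CDADC1, FNDC3A and RCBTB2 on one side, ITM2B, MED4, SUCLA2, ESD and LRCH1 on the other) were all below their median in Dal4. Dal4 was the lowest culture at 9 of these 10 genes, and its median deviation over them was -0.74. Over all 108 measured genes of chromosome 22 its mean deviation was -0.60, against -0.07 to 0.24 in the other 9 cultures. RB1 was lower still than the average of its chromosome in Dal4, by 0.91 log2 units, with 7 of the genes lower. In ChadG8, the next lowest for RB1 with a deviation of -0.79, the neighbours had a median of -0.10 and the chromosome a mean of -0.07.

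CDK4 in ChadG4 was high on a chromosome that was high. Its deviation at the brighter probe set was 1.01. ChadG4 had a median of 0.47 over the 10 neighbours of CDK4, was highest at 5 of them and had a mean of 0.38 over 391 genes of chromosome 10, where no other culture departed from 0 by more than 0.04. The neighbour values were not particular to CDK4. Over the 10 neighbours of CDKN2B, ChadG4 had a median of 0.43 and was also highest at 5, with a mean of 0.04 over chromosome 11. Over those of CCND2 its median was 0.37, with a mean of 0.02 over chromosome 27. Dal4, next highest for CDK4 with a deviation of 0.62, had a chromosome mean of -0.01.

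CCND2 in Dal4 deviated by 2.01, on a chromosome whose 263 genes had a mean of 0.41 in Dal4. The 10 neighbours of CCND2 did not move as 1 block there, with a median of 0.01. Among them TEAD4, C27H12orf4, RAD51AP1 and NDUFA9 were highest in Dal4, by 1.32, 0.83, 2.04 and 1.16 above their medians. In DD1, CCND2 deviated by 1.52 on a chromosome with a mean of 0.01. For CCND3, both ChadG4 and Dal4 were below the median at all 10 neighbours and had means of -0.48 and -0.44 over 331 genes of chromosome 12. CCND3 itself deviated by -0.41 in ChadG4 but by 0.08 in Dal4.

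**Figure D3:**
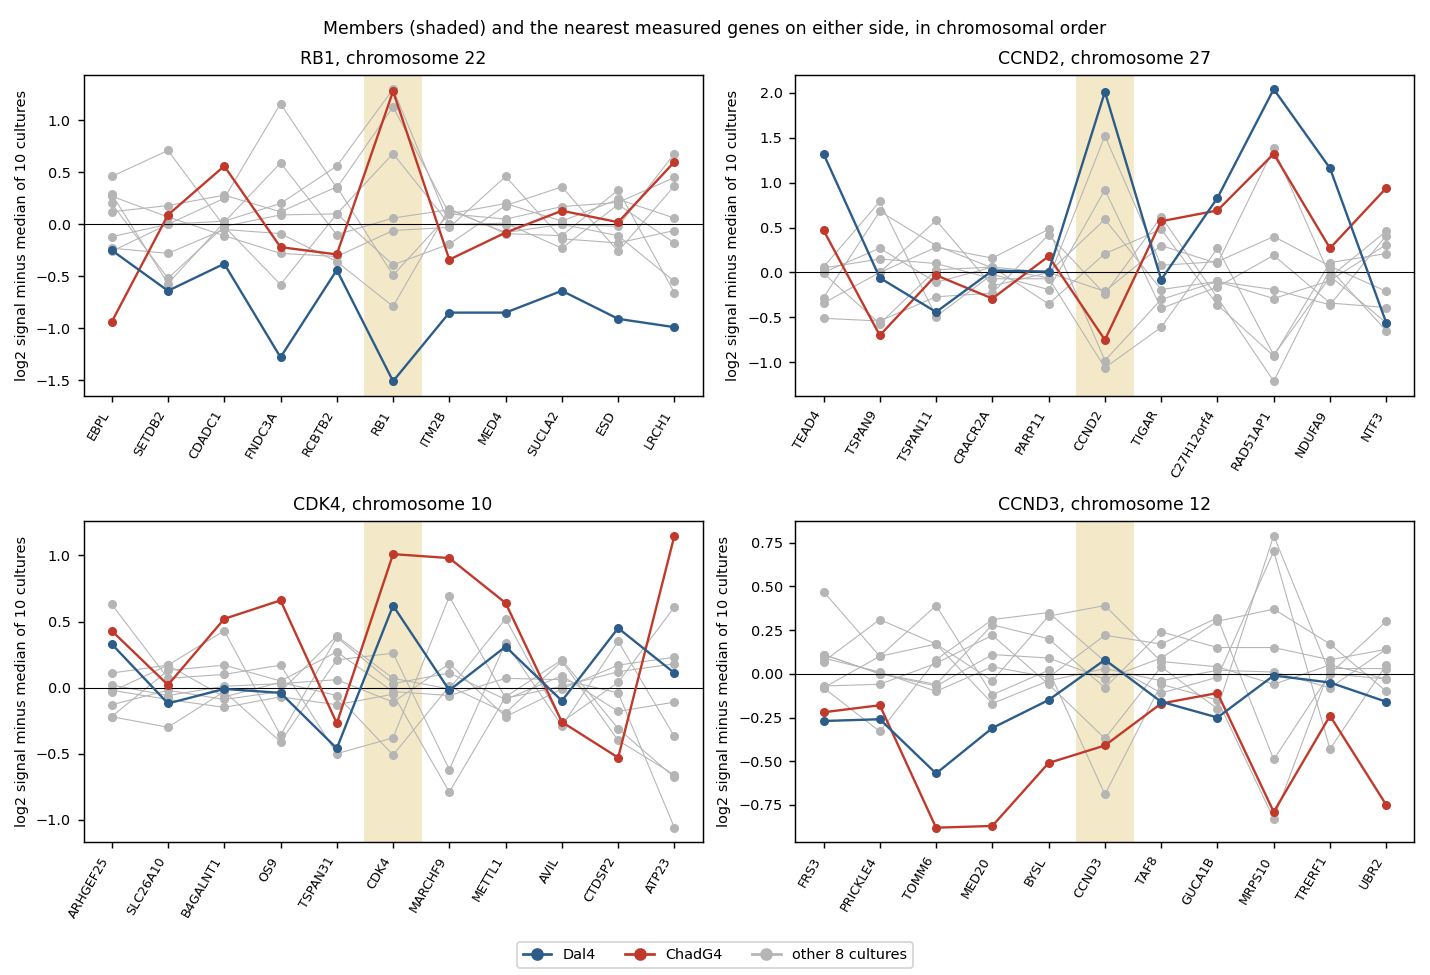
Log2 signal minus the median of the 10 cultures (vertical axis) for RB1, CCND2, CDK4 and CCND3 (shaded) and the 5 nearest measured genes on either side in chromosomal order (horizontal axis), with a line for each culture. Dal4 is below 0 at RB1 and all 10 of its neighbours, and ChadG4 is below 0 at CCND3 and all 10 of its neighbours.

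Shifts of whole chromosomes of this size were seen in Dal4 and ChadG4 and in no other culture. Of 390 pairs of a culture and a chromosome, over 10505 genes, 18 (4.62%) had a mean deviation of at least 0.3 log2 units in either direction. Dal4 had 11 of them, 7 up and 4 down, and ChadG4 had 7, 3 up and 4 down. The chromosomes of RB1, CCND2 and CCND3 were among those of Dal4, and the chromosomes of CDK4 and CCND3 among those of ChadG4. Chromosome 11 with CDKN2B, chromosome 14 with CDK6 and chromosome 18 with CCND1 had no mean beyond 0.19 in any culture. A mean over expressed genes is not a count of gene copies. DNA copy number was not analysed here, and its part in these signals was not tested.

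**Figure D4:**
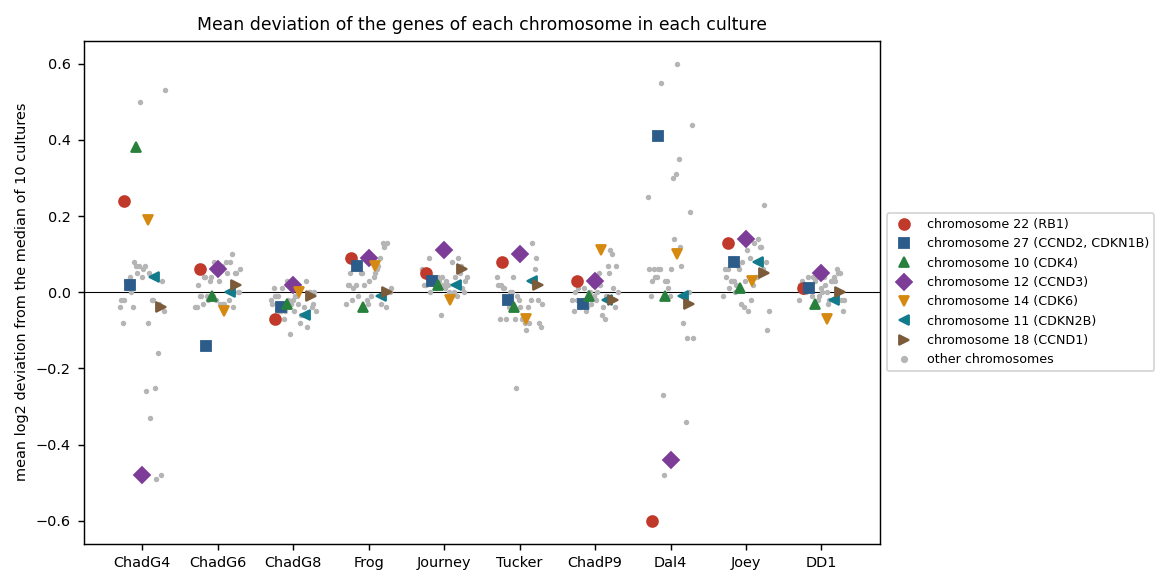
Mean log2 deviation from the median of the 10 cultures (vertical axis) over the measured genes of each chromosome, in each culture (horizontal axis), with the chromosomes of member genes marked. Means beyond 0.3 in either direction occur in ChadG4 and Dal4, and the lowest is that of chromosome 22 with RB1 in Dal4, at -0.60.

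The rest of the pathway was read from 7 lists with 66 genes, of which 60 had a probe set and 59 were tested. Between breed groups, 22 of the 59 were higher in Golden Retrievers and 37 lower, where 47.2% of all tested probe sets were higher. By limma, 0 passed the adjusted test and 1 (1.69%) passed an unadjusted p of 0.05, a smaller share than the 6.32% of all tested probe sets. That gene was CBX7, a Polycomb protein that represses the CDKN2A locus, with 5.36 to 5.62 in Golden Retrievers and 5.15 to 5.29 in the others. Its difference was 0.29 (SE 0.120, limma p = 0.0393, adjusted p = 0.774), and the groups did not overlap, as at 2.45% of all tested probe sets (exact permutation test, two-sided, p = 0.0119, the smallest that 6 dogs against 3 allow). These signals lie just above the 40th percentile of the arrays, 5.03 to 5.16.

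Among pocket proteins, E2F factors and their DP partners, 3 of 10 genes were higher in Golden Retrievers, with a median difference of -0.08. E2F1, the factor that RB1 restrains, had the widest range of these, from 4.73 in Tucker to 7.10 in Dal4. Among the other CDK inhibitors, 3 of 4 were higher, with a median of 0.29. CDKN1A, which encodes the p53 target p21, was lower in ChadG4, at 8.96, than in the other 9 cultures, at 11.27 to 13.44. Among genes of cyclin E, cyclin A and CDK2, 2 of 8 were higher, with a median of -0.19. Cyclin A2 (CCNA2) ran from 4.39 in Tucker to 9.63 in Dal4.

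Of the genes for turnover of p27 and of D cyclins, 2 of 8 were higher, with a median of -0.08. SKP2, the ubiquitin ligase subunit that targets p27, ran from 5.34 in ChadG8 to 7.41 in Dal4. Of E2F target and S phase genes, 8 of 16 were higher, with a median of -0.01. RRM2, which makes deoxyribonucleotides, ran from 6.39 in Tucker to 11.40 in Dal4. Of mitosis genes, 1 of 5 was higher, with a median of -0.17, and topoisomerase TOP2A ran from 4.73 in Tucker to 9.96 in Dal4. Of upstream regulators of CDKN2A and CDKN1B, 3 of 8 were higher, with a median of -0.06. EZH2, the Polycomb methyltransferase, ran from 6.67 in ChadG8 to 8.89 in ChadG4.

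Target genes of E2F did not follow the level of RB1 in a single direction. Dal4, with the least RB1, had the highest mean deviation over the E2F target list, at 1.33, and was the highest culture at 12 of the 16 genes. Frog and ChadG4, both with much RB1, were next with 1.01 and 0.82. ChadG8, the next lowest for RB1, had -0.67, close to -0.66 in ChadP9, which had the most. Tucker was lowest, at -1.19, and was also lowest at all 5 mitosis genes, where its mean was -2.38 and that of Dal4 was 1.85. ChadG4, Dal4 and Frog, the highest cultures for the E2F target list, were also the highest for CDK4 at its brighter probe set.

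**Figure D5:**
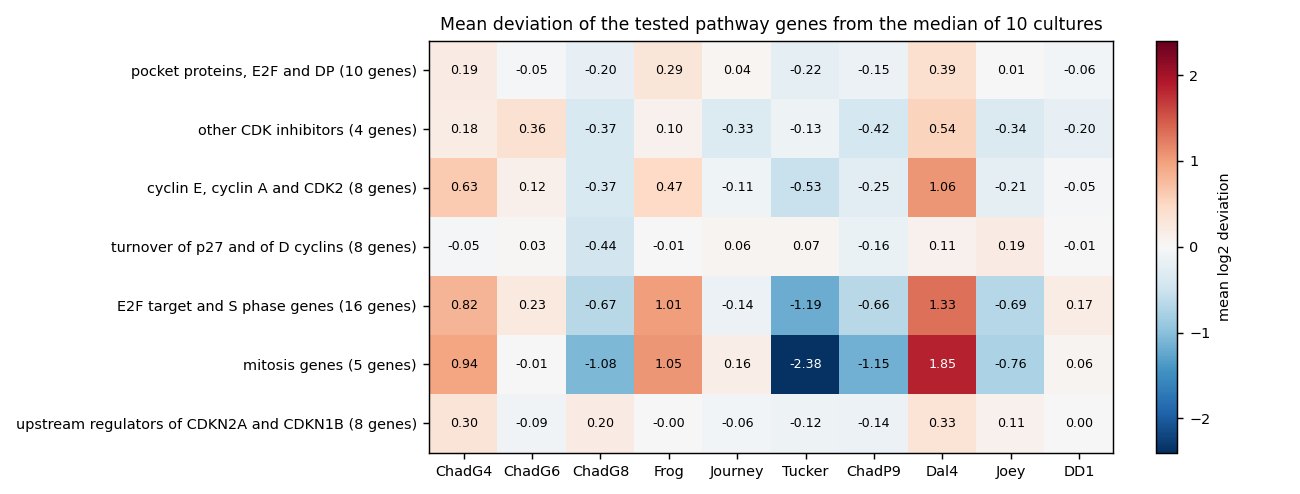
Mean log2 deviation from the median of the 10 cultures (color and printed value) of the tested genes of each of 7 pathway lists (rows) in each culture (columns). Tucker is lowest and Dal4 highest for E2F target and mitosis genes, whose means span from -2.38 to 1.85.

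The genes whose signals were most like those of CCND1, CCND2 and RB1 were sought among 1599 genes with a range of at least 2 log2 units, by Pearson r over the 10 cultures, as a description. For RB1 these were the receptor tyrosine kinase AXL (r = 0.90), the secreted matrix protein CCN4 (r = 0.87) and SASH1 (r = 0.83). AXL ran from 4.79 in Dal4 to 8.61 in ChadP9, the same extremes as RB1. For CCND1 they were the laminin receptor integrin ITGA6, the glycolytic aldolase ALDOC and CYP27C1, each with r = 0.90. ITGA6 had 5.10 in Joey against 8.04 to 11.07 in the other cultures. For CCND2 they were the cytoskeletal linker PLEC (r = 0.90), the cholesterol synthesis enzyme DHCR7 (r = 0.81) and the mitochondrial creatine kinase CKMT2 (r = 0.77). All 3 were highest in Dal4, as CCND2 was. These correlations share the same 10 arrays, and each is among the 3 highest of 1599. A high r is therefore in part a result of this choice, and the r that unrelated genes would reach was not computed. Dal4, whose array stood apart, was lowest for RB1 and highest for CCND2.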

How the data were processed

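Signals of 10 Canine_2 arrays, 1 per dog, were deposited as log2 values that the authors had made with RMA from the affy package, which corrects background, normalizes by quantiles and summarizes the probes of a probe set. RMA draws low signals together, so differences near background are understated. Of 43035 probe sets, 175 controls (111 AFFX and 64 reporter) were left out. Gene names came from the platform annotation: 29254 probe sets had 1 symbol, 439 several and 13167 none, and 27680 of the gene identifiers matched the RefSeq table of UU_Cfam_GSD_1.0. In their own comparison the authors removed absent genes by detection calls, which were not used here.

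A probe set was tested if, on 3 or more arrays, its signal exceeded the 40th percentile of that array. These 26851 were compared between 6 Golden Retrievers and 3 non-Golden Retrievers with limma 3.58.1 in R 4.3.3, two-sided, with Benjamini-Hochberg adjustment over all of them. The fit was tested on simulated data. Exact permutation tests ran over all 84 splits of the dogs, in Python 3.11.15 with scipy 1.17.1. The number of arrays limits the precision.

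The members and lists were chosen with earlier results of these data known. Every member probe set was named. From each pathway list, genes at an unadjusted p under 0.05 and the gene of widest range were named, and for members with a range of at least 2 log2 units, the 3 genes most alike. Where a gene of a list had several probe sets, that of highest mean signal was used. Sex was taken from the study's record of the dogs. Alternatives were centring, renewed quantile normalization, other filters, the methods' t-test, the place of DD1, males only and leaving out each dog. The means over chromosomes and the median without CDKN2B were added after the data had been seen.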

Additional observations from a re-analysis of the deposited data

Results flagged for a closer look

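Among the 12 member probe sets, each examined within the 6 Golden Retrievers, 2 had a dog far from the others by Dixon's test, which chance gives in about 1 of 20 groups. The dimmer CDK4 probe set had 11.73 in ChadG4 against 10.38 to 10.78 in the other 5 Golden Retrievers. The brighter CDK4 probe set, with 12.14 in ChadG4 against 10.62 to 11.39 in the other 5, was not flagged. The brighter CDK6 probe set had 5.61 in Tucker against 6.45 to 6.62 in the other 5.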

How the results depend on the processing

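Of 169 alternative values of the member differences, 149 kept their direction, 20 reversed (15 of them with 1 dog left out) and 0 passed the adjusted test. CCND3, at -0.01, turned to 0.06 with arrays centred on their medians (medians moved by up to 0.113 log2 units), 0.01 with quantile normalization again and 0.06 with DD1 as a Golden Retriever. CDK4 at its dimmer probe set, at -0.05, turned to 0.01 with centring and 0.07 with male dogs only. With each dog left out in turn, differences ran from 0.23 to 1.28 and from 0.20 to 1.59 at the CCND1 probe sets, -0.92 to 0.61 for CCND2, -0.13 to 0.10 for CCND3, -0.23 to 0.12 and -0.36 to 0.03 for CDK4, -0.59 to 0.19 for CDK6, 0.31 to 0.60 for CDKN2B, and -0.27 to 1.14 and -0.45 to 0.97 for RB1. Member probe sets at an unadjusted p under 0.05, 0 as reported, ran from 0 to 2, with 2 without ChadP9, where 11.7% of all tested probe sets passed. Those without overlap of the groups also ran from 0 to 2, with 2 without ChadP9 and 1 without Joey, where 14.1% and 6.33% of all tested probe sets had none. With purebred dogs only, 1 member probe set, that of CCND2, had a culture (Dal4) at least 1 log2 unit above the others, and with a gap of 2 log2 units 0 had one below. Of pathway genes, 1 as reported and 0 with a stricter filter, quantile normalization again, DD1 as a non-Golden Retriever or males only passed an unadjusted p of 0.05, and 0 to 2 did with 1 dog left out. Of all tested probe sets, 1 passed the adjusted test, 2 by the methods' t-test, 0 with DD1 as a non-Golden Retriever and up to 2 with 1 dog left out. At an unadjusted p under 0.05 there were 1698, 921 with DD1 as a non-Golden Retriever, 968 without Dal4 and 3142 without ChadP9. With CDKN2B left out, which was chosen after seeing the data, the median difference of the member probe sets turned from 0.10 to -0.01. The cause of these changes was not tested. No paired analysis was possible because the labels give no number or batch shared between dogs of the groups. The planned correlations with CDKN2A or CDKN1C were not run, since neither had a probe set. Signals near background limit what can be said of CDKN2B and CDKN1B.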
